A study of Mus musculus with 12 samples.

Results

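The genes described here are 36 genes of glycolysis and of the response to low oxygen, measured in sorted cells of mouse leukaemias. They were listed by gene name, and each was read from the deposited log2 expression table through the probe set that is annotated to it alone. Where a gene had more than 1 such probe set, the one with the highest mean was used. Of the 36 genes, 30 were measured, out of 22180 genes in the table, and all 30 passed the filter on low values. Aldoa, Bnip3l, Ankrd37 and Pgm1 were on probe sets shared with other genes and were not used, and Gpi1 and Eno1 were not listed in the probe annotation. The 30 genes were 13 glycolytic enzymes, 12 hypoxia regulators, and 5 transporters and glycogen genes.

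The 12 arrays came from 6 leukaemias, all induced with the fusion oncogene MLL-AF9, which drives acute myeloid leukaemia. Leukaemias 81, 83 and 85 were labelled Dnmt3b knock-in, under a heading of Dnmt3b overexpression, and leukaemias 73, 75 and 79 were labelled wild type. Dnmt3b is a DNA methyltransferase that sets new methylation marks. Cells of each leukaemia were sorted by c-kit into a positive and a negative fraction, so that each of the 4 groups held 3 arrays. The receptor c-kit, encoded by Kit, marks immature blood cells. The promoter behind the knock-in, the strain, the age of the mice and whether each number is a separate mouse are not given in the sources used here, so p-values measure the spread between these samples. Sample titles name bone marrow and the source field names spleen, and the tissue was not settled.

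Glycolysis splits glucose into pyruvate and yields energy without oxygen. Glucose enters through transporters such as Slc2a1, hexokinases trap it as a phosphate, phosphofructokinases commit it to the pathway, and lactate dehydrogenase with the monocarboxylate transporters disposes of the end product. When oxygen is low, the prolyl hydroxylases of the Egln family no longer mark Hif1a for destruction, and the HIF complex binds a short core sequence near its target genes, many of which encode these same enzymes. Blood-forming tissue is poorly oxygenated, and immature blood cells are known to rely on glycolysis.

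Kit averaged 8.08 ± 0.16 in c-kit-positive and 6.68 ± 0.14 in c-kit-negative fractions (log2 RMA, SD, n = 6 each), a 2.65-fold difference with a limma adjusted p of 7.78e-06. Dnmt3b did not separate the genotype labels. Its mean was 6.39 ± 0.085 in leukaemias labelled knock-in and 6.36 ± 0.12 in those labelled wild type (SD, n = 3 each), a difference of 0.03 on the log2 scale (95% interval -0.19 to 0.25). Whether its probe set detects the knock-in transcript was not tested, so the genotype groups are called by their labels throughout. Arrays of the same group correlated at 0.933 to 0.986 (Pearson). The arrays have no depth, and their number limits the precision.

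The HIF core sequence was looked for in the 250 bases before each listed gene start (RefSeq, mouse build GRCm38.p6). The table listed starts for 28 of the 30 measured genes, in 38 windows. Slc2a3 and Ndrg1 were not listed there. The letters ACGTG, on either strand, were found in at least 1 window of 19 of the 28 genes (67.9%), against 18.5% of the 27025 genes of the table. GCGTG was found in 19 of 28 (67.9%), against 30.9% of the genes of the table. Overlapping matches were each counted, so that CACGTG, which holds ACGTG on both strands, counts as 2. With either motif, 26 of the 28 genes held a match (92.9%), against 41.5% of all genes. Both motifs contain a CpG, and member windows held a median of 14 CpG against 6 in all 32851 windows. Tpi1, which encodes triosephosphate isomerase, and Gys1, which encodes glycogen synthase, had no match in this window. The Ldha window with the most matches held 5 matches to ACGTG, counted over both strands.

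4 windows are printed here because their genes differed between the c-kit fractions in both directions, as described further on. Slc16a1 and Egln3 were higher in c-kit-positive cells, and Ddit4 and Pfkp were lower. Each window has 1 listed start and ends at the base before it, reads 5′ to 3′ on the strand of the gene, and has its motif letters in capitals.
Slc16a1, chr3:104638414-104638663, plus strand: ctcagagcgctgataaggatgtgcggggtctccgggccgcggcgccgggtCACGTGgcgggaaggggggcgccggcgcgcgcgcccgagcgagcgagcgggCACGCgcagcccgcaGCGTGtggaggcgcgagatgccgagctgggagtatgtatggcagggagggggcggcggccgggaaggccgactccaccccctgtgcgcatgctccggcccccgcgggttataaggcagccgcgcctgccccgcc
Egln3, chr12:54203875-54204124, minus strand: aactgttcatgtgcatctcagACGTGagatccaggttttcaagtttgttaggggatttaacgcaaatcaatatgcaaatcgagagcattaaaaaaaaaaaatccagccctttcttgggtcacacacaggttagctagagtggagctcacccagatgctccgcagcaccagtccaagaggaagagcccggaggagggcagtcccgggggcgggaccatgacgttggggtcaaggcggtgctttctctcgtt
Ddit4, chr10:59951771-59952020, minus strand: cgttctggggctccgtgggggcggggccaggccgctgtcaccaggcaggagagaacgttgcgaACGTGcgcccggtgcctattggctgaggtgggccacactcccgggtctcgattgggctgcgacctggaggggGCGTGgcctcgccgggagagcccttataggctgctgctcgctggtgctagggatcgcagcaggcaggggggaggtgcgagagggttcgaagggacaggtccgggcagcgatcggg
Pfkp, chr13:6648772-6649021, minus strand: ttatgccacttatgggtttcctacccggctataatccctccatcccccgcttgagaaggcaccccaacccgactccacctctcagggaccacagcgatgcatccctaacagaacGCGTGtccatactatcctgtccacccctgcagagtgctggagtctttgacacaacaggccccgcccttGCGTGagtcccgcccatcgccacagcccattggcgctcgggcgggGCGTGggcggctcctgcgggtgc
The Slc16a1 window had 2 matches to ACGTG and 2 to GCGTG, from 200 to 134 bases before the start, and held 37 CpG. The Egln3 window had 1 match to ACGTG, 229 bases before the start, and 10 CpG. The Ddit4 window had 1 match to each motif, at 187 and 115 bases before the start. The Pfkp window had 3 matches to GCGTG, the nearest 23 bases before the start. A match is a string of letters and was not tested for binding, and matches stood in windows of genes from both directions.

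The comparison of the c-kit fractions asks how these genes differ between more and less immature cells of the same leukaemias. Members moved in both directions. Of the 30 genes, 6 were higher and 3 were lower in c-kit-positive cells at a limma adjusted p under 0.05 (30% of the members, against 8.25% of the 19152 genes tested, 5.84% higher and 2.41% lower). The higher ones were Slc16a1, Gys1, Tpi1, Vegfa, Pgam1 and Egln3, and the lower ones were Ddit4, Slc2a3 and Pfkp. Each of the 9 differed in the same direction in 6 of 6 leukaemias. Of all 30 genes, 14 kept one direction in all 6 leukaemias, 10 higher and 4 lower, against 21.9% of all genes (13% higher and 8.97% lower). The median difference of the 30 genes was 0.07, against -0.03 over all genes. The members were chosen with earlier results of these data known, so these shares describe the list and are no test of the pathway. Both fractions of a leukaemia share its number and varied together, and with the leukaemia as a block 16 of the 30 genes passed (19.6% of all genes), 10 higher and 6 lower. The 7 added genes were Hk3, Ldha, Hif1a and Pdk3, which were higher, and Ndrg1, Slc2a1 and Slc16a3, which were lower. Without leukaemia 73 the count was 4 of 30, with 543 of all genes called, and without leukaemia 75 it was 3 of 30, with 503 called, against 1580 genes with all leukaemias.

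**Figure D1:**
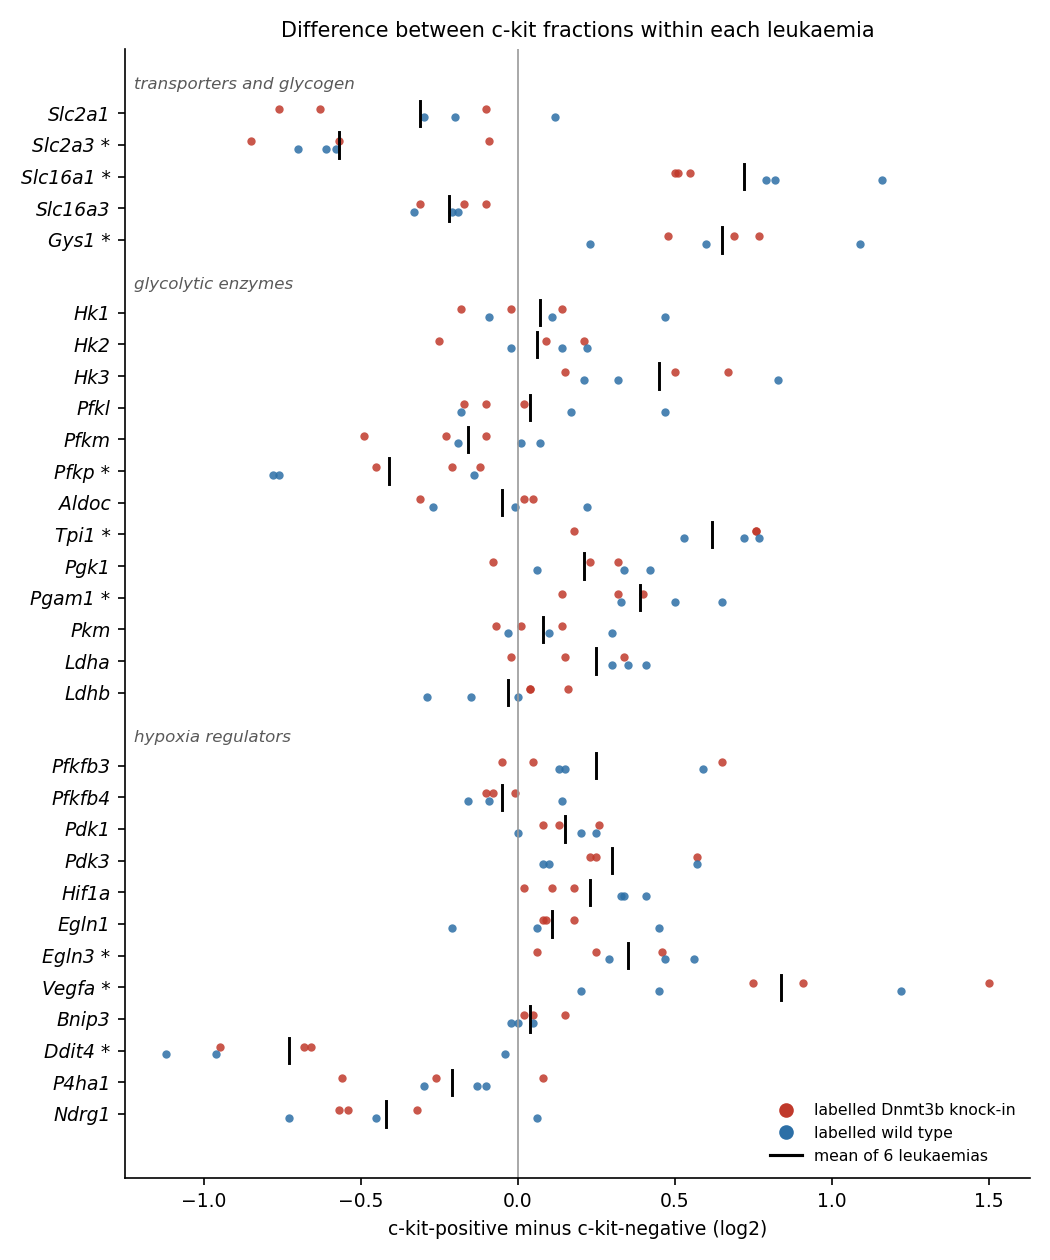
Difference in log2 RMA level between the c-kit-positive and c-kit-negative fraction of each leukaemia (x axis) for the 30 measured genes (rows, by class). Points are single leukaemias, vertical bars are the mean of 6, and an asterisk marks the 9 genes with a limma adjusted p under 0.05. Vegfa and Slc16a1 lie to the right of 0 and Ddit4 and Slc2a3 to the left in every leukaemia.

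Of the 4 transporters of glucose and lactate, 1 was higher and 1 was lower in c-kit-positive cells, against 5.84% and 2.41% of all genes. Array values are given as log2 RMA levels of leukaemias 81, 83 and 85 under the knock-in label and of leukaemias 73, 75 and 79 under the wild-type label. Slc2a3, the neuronal-type glucose transporter GLUT3, was 6.96, 7.39 and 6.90 in c-kit-positive cells labelled knock-in and 6.68, 6.17 and 6.21 in those labelled wild type, against 7.54, 7.49 and 7.75 and 7.38, 6.75 and 6.82 in the c-kit-negative cells of the same leukaemias. It was lower in c-kit-positive cells by 0.57 on the log2 scale (difference -0.57, SE 0.13, limma adjusted p = 0.022). The fractions overlapped over all 6 leukaemias but not within either genotype label. The call was lost without leukaemia 75 (adjusted p = 0.0755), 79 (0.0604) or 85 (0.0729). It held with the leukaemia as a block (limma adjusted p = 0.00109). Slc2a1, the widespread glucose transporter GLUT1, differed by -0.31 (SE 0.15, adjusted p = 0.236, and 0.0353 with the leukaemia as a block), and was lower in c-kit-positive cells in 5 of 6 leukaemias.

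Slc16a1 encodes the monocarboxylate transporter MCT1, which moves lactate and pyruvate across the cell membrane. Its level was 7.72, 7.71 and 7.22 in c-kit-positive cells labelled knock-in and 7.96, 8.38 and 7.96 in those labelled wild type, against 7.17, 7.20 and 6.72 and 7.14, 7.21 and 7.16 in the c-kit-negative cells of the same leukaemias. Every c-kit-positive array lay above every c-kit-negative array, and leukaemia 85 was the lowest within each fraction. The difference was 0.72 (1.65-fold, SE 0.12, limma adjusted p = 0.00318), and the call held in all 13 alternatives run. Its sister Slc16a3, the lactate exporter MCT4 and a known HIF target, went the other way in all 6 leukaemias, with a difference of -0.22 (SE 0.14, adjusted p = 0.359). With the leukaemia as a block its adjusted p was 0.0344.

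Of the 13 glycolytic enzymes, 2 were higher, 1 was lower and 10 did not pass the test. The shares of all genes were 5.84% higher and 2.41% lower. Tpi1, which interconverts the triose phosphates, was 9.26, 9.39 and 9.54 in c-kit-positive cells labelled knock-in and 9.38, 9.62 and 9.65 in those labelled wild type, against 9.08, 8.63 and 8.78 and 8.61, 8.90 and 9.12 in the c-kit-negative cells of the same leukaemias. The c-kit-positive arrays were all above the c-kit-negative ones, and leukaemia 81 had the smallest difference at 0.18. Over all leukaemias Tpi1 was higher by 0.62 (1.54-fold, SE 0.11, limma adjusted p = 0.00424), and the call held in all 13 alternatives.

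Pgam1, the phosphoglycerate mutase of the lower pathway, was 8.83, 9.04 and 8.65 in c-kit-positive cells labelled knock-in and 8.97, 9.26 and 9.24 in those labelled wild type, against 8.68, 8.64 and 8.33 and 8.64, 8.61 and 8.73 in the c-kit-negative cells of the same leukaemias. The difference was 0.39 (SE 0.092, limma adjusted p = 0.0215), and the c-kit-positive fraction of leukaemia 85 lay within the c-kit-negative range. Its other probe set gave a difference of 0.24. The call was lost without leukaemia 73 (adjusted p = 0.0553), 75 (0.132), 79 (0.0692) or 83 (0.0852), and with a trended, robust variance (0.0548). It held with the leukaemia as a block (limma adjusted p = 0.00225).

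Pfkp, the platelet form of phosphofructokinase, was the enzyme that was lower in c-kit-positive cells. Its level was 7.19, 7.51 and 7.12 in c-kit-positive cells labelled knock-in and 7.11, 7.37 and 7.62 in those labelled wild type, against 7.64, 7.64 and 7.33 and 7.87, 8.14 and 7.76 in the c-kit-negative cells of the same leukaemias. The difference was -0.41 (SE 0.11, limma adjusted p = 0.0377), larger in leukaemias 73 (-0.76) and 75 (-0.78) than in the others (-0.45 to -0.12). The call was lost without leukaemia 73 (adjusted p = 0.142), 75 (0.175), 81 (0.0883) or 83 (0.0798), with arrays centred on their medians (0.0876) and with a trended, robust variance (0.0501). It held with the leukaemia as a block (limma adjusted p = 0.00776). The other phosphofructokinase subunits, Pfkl of liver and Pfkm of muscle, had differences of 0.04 (SE 0.17, adjusted p = 0.913) and -0.16 (SE 0.078, adjusted p = 0.25). Pfkm levels were low, 5.26 to 5.83, around the median of all values (5.63).

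The other enzymes ranged from -0.05 for Aldoc to 0.45 for Hk3, with none past the threshold. Hk3, a hexokinase found in myeloid cells, was higher in c-kit-positive cells in all 6 leukaemias, by 0.15 to 0.83, but its arrays also varied widely within fractions (SE 0.21, adjusted p = 0.217, and 0.00628 with the leukaemia as a block). Hk1 and Hk2, the common hexokinases, had differences of 0.07 (SE 0.087) and 0.06 (SE 0.13). Ldha, which turns pyruvate into lactate and is a textbook HIF target, had a difference of 0.25 (SE 0.11, adjusted p = 0.184, and 0.0223 with the block). Pgk1 and Pkm, the enzymes that make ATP in the lower pathway, had differences of 0.21 (SE 0.13, adjusted p = 0.363) and 0.08 (SE 0.11, adjusted p = 0.697).

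**Figure D2:**
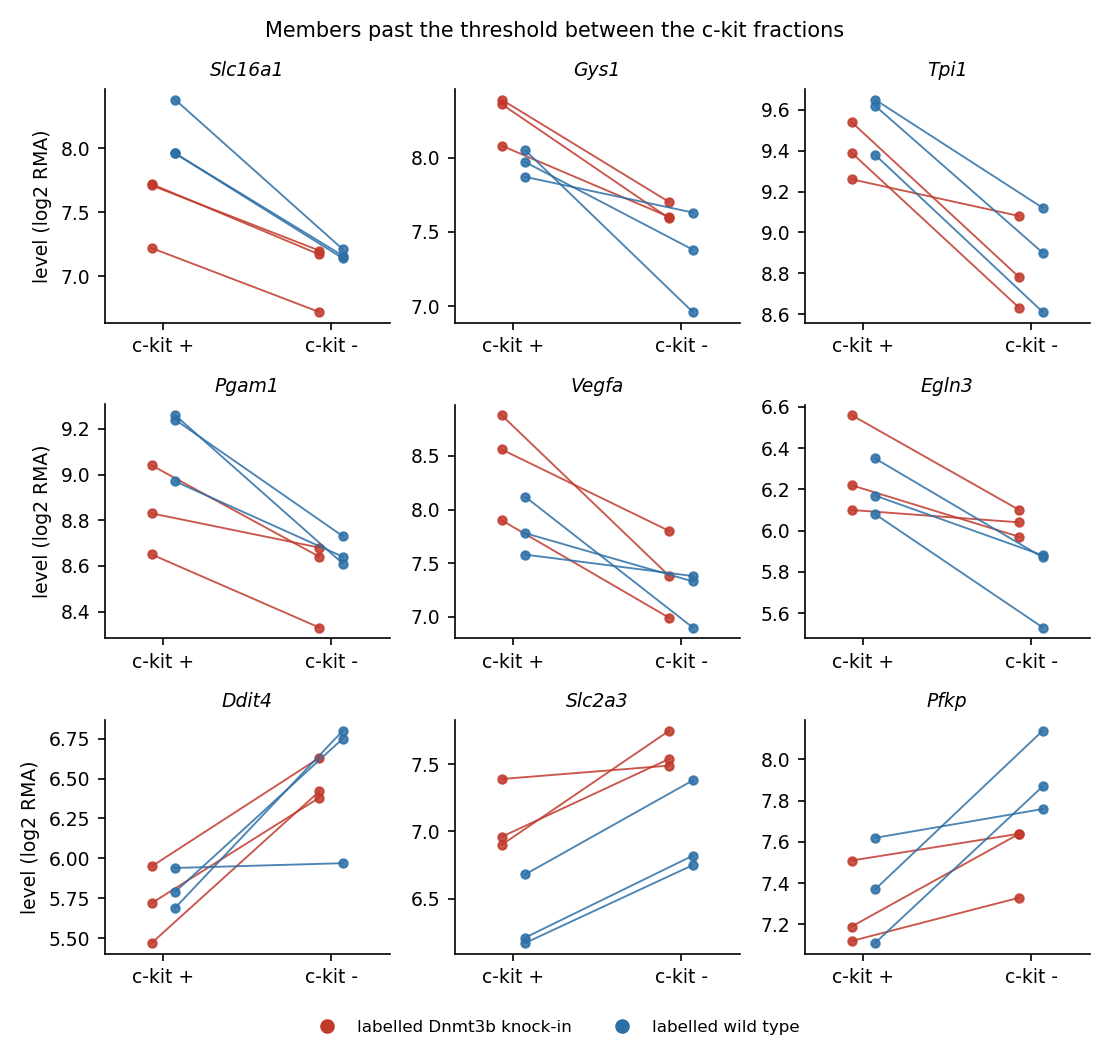
Level in log2 RMA units (y axis, own range per gene) of the 9 genes past the threshold between the c-kit-positive (left) and c-kit-negative (right) fraction. Each line joins both fractions of a leukaemia. Lines of Slc16a1 and Tpi1 all descend to the right and those of Ddit4 and Slc2a3 all ascend, with leukaemia 79 nearly level for Ddit4 at a difference of -0.04.

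The 4 flux regulators steer glucose carbon into or away from glycolysis, and none passed the test (8.25% of all genes did). Pdk1 and Pdk3 are kinases that close the entry of pyruvate into mitochondria. Pdk3 lay higher on every c-kit-positive array (6.53 to 6.72) than on every c-kit-negative array (6.10 to 6.51), with a difference of 0.30 (SE 0.088, limma adjusted p = 0.0542). Its adjusted p was 0.0257 with the leukaemia as a block. Pdk1 differed by 0.15 (SE 0.082, adjusted p = 0.28), and its other, dim probe set by -0.13. Pfkfb3 and Pfkfb4 set the amount of fructose 2,6-bisphosphate, the activator of phosphofructokinase. Pfkfb3 differed by 0.25 (SE 0.12, adjusted p = 0.233), with 0.59 in leukaemia 73 and 0.65 in leukaemia 81 and between -0.05 and 0.15 in the others. Pfkfb4 differed by -0.05 (SE 0.074, adjusted p = 0.723).

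Egln3 is a HIF prolyl hydroxylase that is itself induced by HIF. Its level was 6.10, 6.22 and 6.56 in c-kit-positive cells labelled knock-in and 6.17, 6.08 and 6.35 in those labelled wild type, against 6.04, 5.97 and 6.10 and 5.88, 5.53 and 5.87 in the c-kit-negative cells of the same leukaemias. It was higher in c-kit-positive cells by 0.35 (SE 0.096, limma adjusted p = 0.0425), with fractions that overlapped over all leukaemias but not within either genotype label, although in the knock-in label the nearest arrays both read 6.10 after rounding. The call was lost without leukaemia 73 (adjusted p = 0.104), 75 (0.135), 79 (0.109), 83 (0.145) or 85 (0.0779). It held with the leukaemia as a block (limma adjusted p = 0.00615). Egln1, the main oxygen sensor of the family, differed by 0.11 (SE 0.085, adjusted p = 0.484). Its levels, 5.08 to 5.61, lay below the median of all values (5.63). Hif1a differed by 0.23 (SE 0.084, adjusted p = 0.117, and 0.0224 with the block), and its other, dim probe set by -0.00.

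Of the 5 hypoxia-induced genes, Vegfa was higher, Ddit4 was lower and the other 3 did not pass the test. The shares of all genes were 5.84% higher and 2.41% lower. Vegfa, the growth factor of blood vessels, was 8.88, 8.56 and 7.90 in c-kit-positive cells labelled knock-in and 8.12, 7.78 and 7.58 in those labelled wild type, against 7.38, 7.80 and 6.99 and 6.90, 7.33 and 7.38 in the c-kit-negative cells of the same leukaemias. The difference was 0.84 (1.79-fold, SE 0.18, limma adjusted p = 0.0123), the highest of the 30 genes, and ranged from 0.20 in leukaemia 79 to 1.50 in leukaemia 81. The fractions overlapped over all leukaemias and stood apart within each genotype label. Vegfa also had the widest range over the 12 arrays, 1.99. The call was lost without leukaemia 73 (difference 0.69, adjusted p = 0.0861) or 75 (adjusted p = 0.0626), and held with the leukaemia as a block (limma adjusted p = 0.000832).

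Ddit4, an inhibitor of mTORC1 signalling that hypoxia and other stresses induce, was 5.47, 5.72 and 5.95 in c-kit-positive cells labelled knock-in and 5.69, 5.79 and 5.94 in those labelled wild type, against 6.42, 6.38 and 6.63 and 6.80, 6.75 and 5.97 in the c-kit-negative cells of the same leukaemias. All c-kit-positive arrays lay below all c-kit-negative ones. The difference was -0.73 (SE 0.14, limma adjusted p = 0.00654), lower in c-kit-positive cells by 0.66 or more in 5 leukaemias and by 0.04 in leukaemia 79. The call was lost without leukaemia 73 (adjusted p = 0.0536) or 75 (0.0554), and held with the leukaemia as a block (limma adjusted p = 0.0013). Ndrg1, a stress-induced gene of differentiating cells, differed by -0.42 (SE 0.12, adjusted p = 0.0531, and 0.00802 with the block), and its other probe set by -0.19. P4ha1, a collagen prolyl hydroxylase, differed by -0.21 (SE 0.13, adjusted p = 0.337). Bnip3, a mitophagy receptor, differed by 0.04 (SE 0.064, adjusted p = 0.739) and had the narrowest range of all 30 genes, 0.20. Its levels, 5.55 to 5.75, lay near the array medians (5.557 to 5.712), and whether they exceed background was not tested.

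Gys1, which encodes the muscle-type glycogen synthase that stores glucose as glycogen, was 8.39, 8.36 and 8.08 in c-kit-positive cells labelled knock-in and 8.05, 7.97 and 7.87 in those labelled wild type, against 7.70, 7.59 and 7.60 and 6.96, 7.38 and 7.63 in the c-kit-negative cells of the same leukaemias. Every c-kit-positive array was above every c-kit-negative array. The difference was 0.65 (1.56-fold, SE 0.11, limma adjusted p = 0.00318), and the call held in all 13 alternatives. Over all 6 leukaemias the fractions did not overlap for 5 of the 30 genes, namely Slc16a1, Gys1, Tpi1 and Pdk3 above and Ddit4 below, against 3.39% of all genes (2.13% above and 1.26% below).

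Glycolytic enzymes and hypoxia regulators were set side by side. Among the 13 enzymes 2 were higher and 1 lower, and among the 12 hypoxia regulators likewise 2 were higher and 1 lower. Of all genes 5.84% were called higher and 2.41% lower. With the leukaemia as a block, where 19.6% of all genes passed, Hk3 and Ldha joined the enzymes called higher. Among the hypoxia regulators the block added Hif1a and Pdk3, which were higher, and Ndrg1, which was lower. The median difference was 0.07 for the enzymes and 0.13 for the hypoxia regulators. Differences spread from -0.41 to 0.62 among the enzymes and from -0.73 to 0.84 among the hypoxia regulators. Within single leukaemias, the median of the enzymes was -0.07 (81), 0.14 (83) and 0.02 (85) under the knock-in label and 0.14 (73), 0.22 (75) and -0.02 (79) under the wild-type label. The median of the hypoxia regulators was 0.10, 0.03 and 0.09 for the same knock-in leukaemias and 0.11, 0.03 and 0.16 for the wild-type ones. The enzymes had medians on both sides of 0, and those of the hypoxia regulators were above 0 in all 6 leukaemias. Medians over all genes were -0.03 to 0.00. The enzyme median was above that of the hypoxia regulators in leukaemias 73, 75 and 83 and below it in 79, 81 and 85. The class of hypoxia regulators was mixed: over all leukaemias the 4 flux regulators had a median of 0.20 and the 3 HIF genes 0.23, whereas the 5 hypoxia-induced genes had a median of -0.21, with 3 of 5 negative. In leukaemia 75 the median was above 0 for both, with 12 of 13 enzymes higher in the c-kit-positive fraction. The difference between the classes was not tested.

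Within each genotype label alone, fewer calls were made. In leukaemias labelled knock-in, Gys1 passed (difference 0.65, SE 0.15, limma adjusted p = 0.0455), 1 of 30 genes against 1.88% of all genes. Vegfa had the highest difference there, 1.05 (2.08-fold, SE 0.25, adjusted p = 0.0526, and 0.00393 with the leukaemia as a block). The Gys1 call was lost without leukaemia 75 (adjusted p = 0.112, wild-type label, difference still 0.65), 81 (0.129), 83 (0.389) or 85 (0.0779). It was also lost after repeated quantile normalization (adjusted p = 0.0718), where Vegfa passed in its place, with arrays centred on their medians (0.0665), without a filter (0.0509), with a trended, robust variance (0.0714) and with only the groups compared (0.066), and was kept in 5 of 14 alternatives. In leukaemias labelled wild type, Slc16a1 passed (difference 0.93, 1.9-fold, SE 0.17, adjusted p = 0.0309), 1 of 30 against 0.768% of all genes. The Slc16a1 call was lost without leukaemia 73 (adjusted p = 0.232), 75 (0.314), 79 (0.0887) or 83 (0.0619, knock-in label, difference still 0.93). Other members passed in place of these without single leukaemias, namely Tpi1 without leukaemia 81 (adjusted p = 0.0407) and Vegfa without leukaemia 85 (0.0312) in the knock-in label, and Ddit4 without leukaemia 79 (0.0222) in the wild-type label. Without leukaemia 79, 2 members and 367 of all genes passed in the knock-in label, against 360 genes with all leukaemias. In the wild-type label 3 members and 662 genes passed without leukaemia 81, and 4 members and 569 genes without leukaemia 85, against 147 genes with all leukaemias. With the leukaemia as a block, 8 genes passed in the knock-in label (8.7% of all genes) and 11 in the wild-type label (11%). The groups did not overlap for 10 of 30 genes in the knock-in label (13.6% of all genes) and for 12 of 30 in the wild-type label (27.7%).

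The interaction asks whether the difference between fractions depends on the genotype label. None of the 30 genes passed in limma, and 0 had an unadjusted p under 0.05. Over all genes 0% passed, with 427 genes (2.23%) at an unadjusted p under 0.05. The interaction estimates, knock-in minus wild type, ran from -0.41 for Slc16a1 (95% interval -0.92 to 0.11) to 0.43 for Vegfa (95% interval -0.34 to 1.20). These intervals include differences as large as the effects themselves. They and the unadjusted p-values come from the fit without pairing by leukaemia. The Slc16a1 difference was 0.55, 0.51 and 0.50 in leukaemias 81, 83 and 85 and 0.82, 1.16 and 0.79 in 73, 75 and 79. That of Vegfa was 1.50, 0.75 and 0.91 against 1.22, 0.45 and 0.20 in the same order. With 3 leukaemias a label, 0 members passed the interaction with the leukaemia as a block. Of the 13 enzymes, 11 had a negative estimate, with a median of -0.11, and of the 12 hypoxia regulators 7 did, with a median of -0.04. Over all genes 9723 estimates were positive and 9429 negative.

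**Figure D3:**
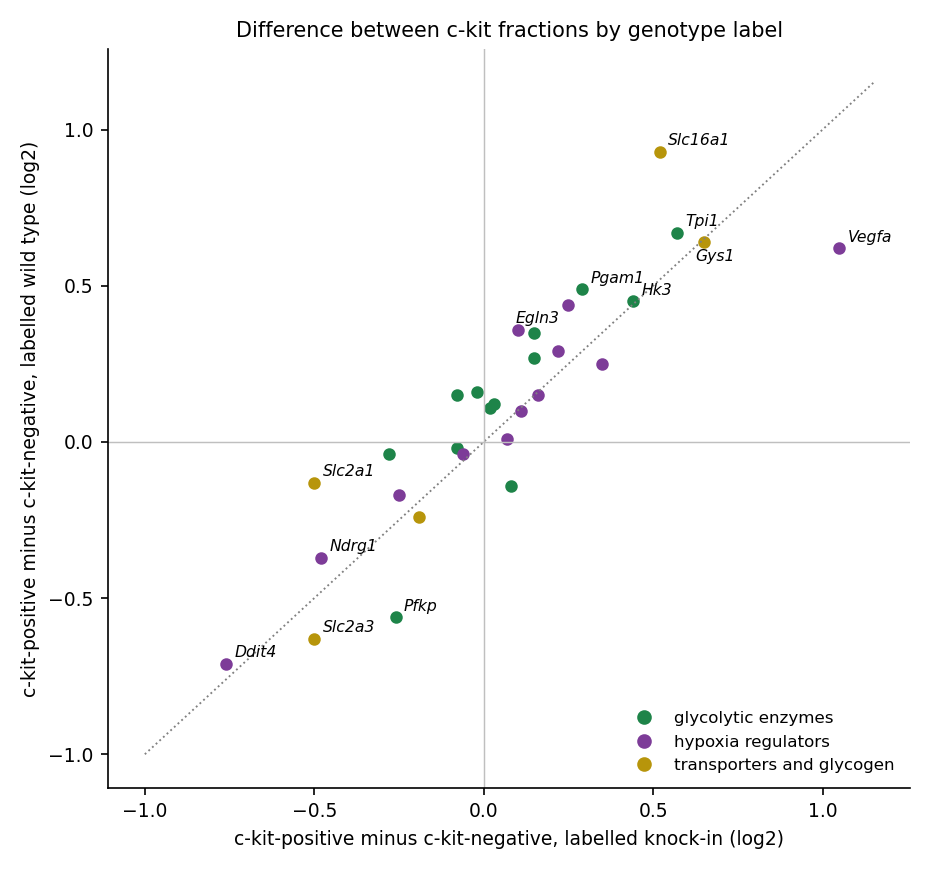
Difference in log2 RMA level between c-kit-positive and c-kit-negative cells in leukaemias labelled knock-in (x axis) and wild type (y axis), mean of 3 each. Points are the 30 genes coloured by class, and the dotted line marks equal differences. Slc16a1 lies above the line (0.52 and 0.93) and Vegfa below it (1.05 and 0.62), and neither departure passed the interaction test.

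The genotype comparison asks how the genes differ between the knock-in and the wild-type label. None of the 30 genes passed in limma over both fractions (0.0261% of all genes did), in c-kit-positive cells (0.141%) or in c-kit-negative cells (0.0627%), and none did in any alternative run. At an unadjusted p under 0.05 there were 6, 6 and 5 of the 30 genes in these 3 comparisons (8.37%, 9.89% and 6.1% of all genes). The groups did not overlap for 5 of 30 genes over both fractions (13% of all genes), 7 of 30 in c-kit-positive cells (17.4%) and 5 of 30 in c-kit-negative cells (8.88%). Slc2a3 and Pfkfb4 stood apart in all 3.

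Slc2a3 had the largest difference over both fractions. Averaged over the fractions it was 7.34 ± 0.096 in leukaemias labelled knock-in and 6.67 ± 0.31 in those labelled wild type (SD, n = 3 each), a difference of 0.67 (1.59-fold, SE 0.15, 95% interval 0.32 to 1.01, limma adjusted p = 0.284). The difference was 0.73 in c-kit-positive cells (adjusted p = 0.185) and 0.61 in c-kit-negative cells (adjusted p = 0.673). Every knock-in array lay above every wild-type array of the same fraction, and Slc2a3 did not pass the test over all genes. Its array values are those given with the transporters.

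Pfkfb4 was 6.27, 6.50 and 6.44 in c-kit-positive cells and 6.35, 6.60 and 6.45 in c-kit-negative cells labelled knock-in (leukaemias 81, 83 and 85), against 6.23, 6.04 and 6.08 in c-kit-positive cells and 6.09, 6.13 and 6.23 in c-kit-negative cells labelled wild type (leukaemias 73, 75 and 79). The groups stood apart within each fraction by small gaps. The difference was 0.30 over both fractions (SE 0.091, 95% interval 0.09 to 0.51, limma adjusted p = 0.402), 0.29 in c-kit-positive and 0.31 in c-kit-negative cells.

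Other members stood apart in 1 fraction, as 17.4% of all genes did in c-kit-positive and 8.88% in c-kit-negative cells. None of them passed the test. In c-kit-positive cells the members were Gys1 (0.31), Ldhb (0.37) and Ndrg1 (0.29) above, and Slc16a1 (-0.55) and Ldha (-0.33) below. In c-kit-negative cells they were Hif1a (0.31) and Egln3 (0.28) above and Pfkp (-0.38) below. Slc16a1 averaged 7.29 ± 0.28 in leukaemias labelled knock-in and 7.63 ± 0.14 in those labelled wild type (SD, n = 3 each), a difference of -0.35 (SE 0.14, limma adjusted p = 0.571). Ldhb, the lactate dehydrogenase subunit of oxidative tissues, differed by 0.26 over both fractions (SE 0.11, adjusted p = 0.548), and Ldha by -0.23 (SE 0.13, adjusted p = 0.729). Vegfa differed by 0.62 in c-kit-positive cells (95% interval 0.08 to 1.16, adjusted p = 0.431) and by 0.19 in c-kit-negative cells (95% interval -0.35 to 0.73).

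By class, the medians over both fractions were 0.01 for the enzymes and 0.15 for the hypoxia regulators, against 0.01 for all genes. In c-kit-positive cells 2 enzymes had a positive and 11 a negative difference (median -0.09), against 9 positive and 3 negative hypoxia regulators (median 0.09). The negative enzymes include Hk2 and Pkm, each at -0.00, and over all genes 10215 differences were positive and 8937 negative. In c-kit-negative cells the enzymes had 7 positive and 6 negative differences (median 0.09), and the hypoxia regulators 8 and 4 (median 0.17). All genes had 9461 and 9691 there. No member passed the test in either fraction, and the classes were not tested against each other.

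**Figure D4:**
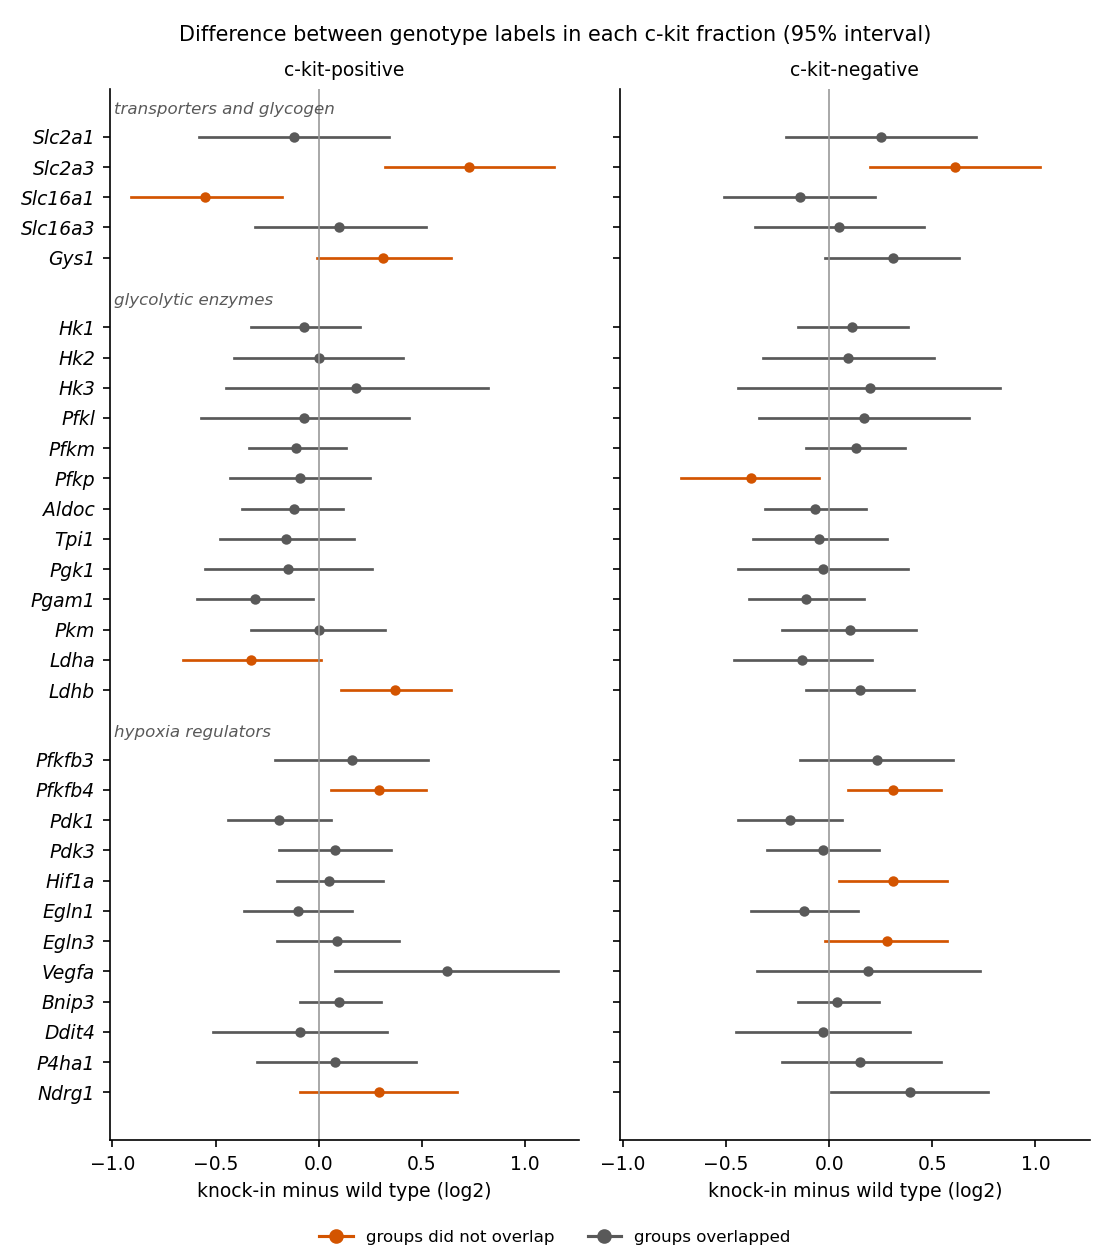
Difference in log2 RMA level between leukaemias labelled knock-in and wild type (x axis) in c-kit-positive cells (left panel) and c-kit-negative cells (right panel) for the 30 genes. Points are limma estimates, lines are 95% intervals, and orange marks genes whose 3 knock-in and 3 wild-type arrays did not overlap. Slc2a3 (0.73 and 0.61) and Pfkfb4 (0.29 and 0.31) are orange in both panels.

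Neighbouring pathways, taken from lists of other genes, gave the following counts between the c-kit fractions, to be read against the 5.84% of all genes called higher and 2.41% called lower. Among glycogen genes 3 of 15 were higher in c-kit-positive cells, namely the phosphorylase kinase subunits Phkb (0.95, limma adjusted p = 0.00138) and Phka2 (0.70, adjusted p = 0.0117) and the branching enzyme Gbe1 (0.48, adjusted p = 0.00454). The median of these 15 genes was 0.09. Among pentose phosphate genes 2 of 8 were higher, Rpia (0.58, adjusted p = 0.0305) and Prps2 (0.38, adjusted p = 0.0451), and all 8 had a positive difference (median 0.18). Among genes for the entry of pyruvate into mitochondria 2 of 11 were higher, Pdhb (0.44, adjusted p = 0.0356) and Dld (0.33, adjusted p = 0.039), both parts of the pyruvate dehydrogenase complex (median 0.10). Among 34 other hypoxia-induced genes 2 were lower, the haem oxygenase Hmox1 (-0.86, adjusted p = 0.00318) and the EGF receptor inhibitor Errfi1 (-0.39, adjusted p = 0.00573), with a median of -0.00. None of 18 other glycolysis and gluconeogenesis enzymes (median -0.03) and none of 12 other HIF subunits and regulators (median 0.08) passed. None of the 6 lists had a member past the threshold between genotype labels over both fractions.

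Markers of myeloid maturation were called between the c-kit fractions at the counts given here, where 5.84% of all genes were called higher and 2.41% lower. Primary granule genes, made by early granulocytes, were higher in c-kit-positive cells for 8 of 8 markers (median 1.53), and their summed intensity was 9914 to 21595 in c-kit-positive and 3442 to 8400 in c-kit-negative arrays. Of the late neutrophil markers 10 of 20 were lower (median -0.66), and of the monocyte and macrophage markers 9 of 15 were lower (median -0.82). Summed monocyte and macrophage intensity was 1621 to 2722 in c-kit-positive and 2979 to 5948 in c-kit-negative arrays. Of the other marker lists, B cell markers had 1 of 7 lower, the immunoglobulin chain Ighm. Past the threshold were 0 of 5 erythroid and 0 of 8 T and NK cell markers tested. So were 0 of 4 megakaryocyte and platelet and 0 of 7 stromal and endothelial markers. Only 5 of 11 listed erythroid and 4 of 6 listed megakaryocyte and platelet markers were measured. Of the 9 T and NK cell markers 1 was below the filter value on all arrays. In sorted bulk cells a change in the share of a cell type and a change in RNA per cell cannot be told apart, and the part of cell type makeup in the differences of the 30 genes was not tested.

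Of the late neutrophil markers, 2 of 20 were higher in the knock-in label over both fractions (0.0261% of all genes were called there), namely Ltf and Ly6g, and 18 did not pass. Of the 20 markers, 19 had a positive difference, and 16 had an unadjusted limma p under 0.05 (8.37% of all genes). The groups did not overlap for 10 of 20, all higher in the knock-in label (13% of all genes in either direction). The median difference of the 20 markers was 0.72, against 0.01 over all genes. Their summed intensity was 17606 to 23328 in c-kit-positive and 22461 to 27880 in c-kit-negative cells labelled knock-in, against 7241 to 15877 in c-kit-positive and 15482 to 19789 in c-kit-negative cells labelled wild type. Its part in the genotype differences of Slc2a3 and the other members was not tested.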

How the data were processed

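Expression was measured on 12 Affymetrix arrays. The deposited values are log2 RMA values, made with RMA in Affymetrix Expression Console per the submitters' processing notes, with versions not given. The values ran on a log2 scale by their range and were used as deposited. Of 41345 probe sets, 23521 had exactly 1 symbol in the probe annotation, 1814 had several and 16010 were not listed, and 0 columns of other samples were present. The probe set with the highest mean was kept for each of 22180 genes. The 19152 genes tested exceeded log2 4.61 (the 25th percentile of all values) on 3 or more arrays.

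Limma 3.58.1 in R 4.3.3, with statmod 1.5.0, fitted 4 group means to 12 arrays. To compare genotype labels across fractions, the arrays of a leukaemia were first averaged. Tests were two-sided, with Benjamini-Hochberg adjustment over all genes tested and a threshold of 0.05. The fit was tested on simulated data, with independent arrays and differences planted between genotype labels only. That simulation held no pairing by leukaemia, so it did not test how the pairing bears on the c-kit comparison. No fold minimum was set.

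The labels give both fractions of a leukaemia the same number, and their deviations from the group means correlated at 0.279 to 0.601 in the 6 leukaemias. The numbers therefore pair the arrays. The leukaemia was a block in an alternative fit, fixed for the c-kit fractions and random for the genotype labels (consensus correlation 0.353). Other alternatives were repeated quantile normalization, median centring, no filter, a stricter filter, the mean of probe sets, a trended and robust variance, fits to the compared groups alone, and leaving out each leukaemia.

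The members, their classes and the lists were chosen with earlier results of these data known. The text names all members, genes of pathway lists past the threshold (at most 3 per direction), Dnmt3b and Kit. Array values are given for members past the threshold and for members outside the range of the other genotype in both fractions. The motif letters and the printed windows were chosen after the values were seen. Groups of 3 arrays were not searched for outlying samples.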

Additional observations from a re-analysis of the deposited data

How the results depend on the processing

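No member past the threshold changed its own direction under any alternative run. Across the 95 recomputed counts of members past the threshold, 75 stayed within 1.5 times the count reported and 20 did not. The 20 were all counts between the c-kit fractions. Between genotype labels and in the interaction every count was 0, as reported and in every alternative, and so could only stay. In wild type without leukaemia 79 the count stayed at 1, but the gene was Ddit4, lower, in place of Slc16a1, higher. Over both genotypes 9 members differed between the c-kit fractions, 16 with the leukaemia as replicate block, and 3 to 8 when a leukaemia was left out. In wild type the count was 1, against 11 with the replicate block, 2 after repeated quantile normalization, 3 with only the groups compared, and 0 to 4 when a leukaemia was left out. In knock-in the count was 1 (Gys1, with Vegfa in its place after repeated quantile normalization), against 8 with the replicate block, 2 with the stricter filter, 0 with arrays centred on their medians, without a filter, with a trended and robust variance and with only the groups compared, and 0 to 2 when a leukaemia was left out. The block takes out the spread between leukaemias, and leaving out a leukaemia removes samples. The cause of the other changes was not tested. The block changed no member call between genotype labels or in the interaction.

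Counts over all genes moved more. Between the fractions over both genotypes 1580 genes passed, 3758 with the block and 503 to 2087 without a leukaemia. In wild type 147 passed, 2109 with the block, 898 with only the groups compared, 69 with centred arrays and 1 to 662 without a leukaemia. In knock-in 360 passed, 1666 with the block, 593 after quantile normalization, 145 with only the groups compared and 58 to 367 without a leukaemia. Between genotype labels over both fractions 5 passed, 34 with the block, 9 with a trended variance, 2 with centred arrays and 2 to 115 without a leukaemia. In c-kit-positive cells 27 passed, 64 with only the groups compared, 17 with the mean of probe sets and 0 to 123 without a leukaemia. In c-kit-negative cells 12 passed, 1 with only the groups compared and 3 to 83 without a leukaemia. The interaction had 0 genes, and 1 without leukaemia 85.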
